A study of Homo sapiens with 6 samples.

Results

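The unfolded protein response and the ATF4 stress response were followed through 40 genes on one-color microarrays of oral squamous cell carcinoma (OSCC) cells with knockdown of the long noncoding RNA DLEU1. Every probe that the array files name after a member was taken, which gave 49 of the 50599 probes and 40 of 36337 gene names. An endoplasmic reticulum (ER) arm of 23 genes holds the chaperones, the degradation factors, and the stress sensors of this compartment. An ATF4 arm of 17 genes holds the transcription factor ATF4 with regulators and metabolic enzymes that it is known to induce. HSC-3, KON, and Ca9-22 are established human cell lines derived from OSCC. Each line was transfected with siDLEU1-2, a small interfering RNA (siRNA) against DLEU1, or with siCtrl, a control siRNA, and total RNA was taken 72 h later. There was 1 array per line and siRNA, 6 arrays in all and all on 1 slide, so the 3 lines are the replicates and a change within a line has no error of its own. With a single siRNA against DLEU1 on the arrays, effects of losing DLEU1 and other effects of this siRNA cannot be told apart. The labels do not say that the lines were transfected on separate occasions. The p-values rest on the spread between these 3 pairs only, taken over all probes as well as the probe tested. In bulk RNA, fewer cells of a kind and less RNA per cell cannot be told apart.

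Proteins that enter the ER are folded there by chaperones, of which BiP (HSPA5) is the best known, and by enzymes that form disulfide bonds. When misfolded proteins accumulate, the sensors IRE1 (ERN1), ATF6, and PERK (EIF2AK3) are activated. ATF6 and XBP1, the transcription factor made after IRE1 splices its mRNA, induce chaperones and the machinery that exports misfolded proteins for degradation. PERK phosphorylates eIF2 alpha, which slows general translation and favors translation of ATF4. ATF4 is also induced through other eIF2 alpha kinases, for instance on amino acid shortage, and then drives genes for amino acid synthesis, aminoacyl-tRNA synthetases, and regulators such as CHOP (DDIT3). The arrays measure RNA, so the splicing of XBP1 and the protein level of ATF4 were not measured here.

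Both arms are known for short DNA elements through which these factors bind, and the elements are shown because they are a feature of the members that does not come from the arrays. The ER stress element, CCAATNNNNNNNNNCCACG, is recognized by ATF6 with NF-Y, and the composite element of ATF4 and C/EBP proteins reads TGATGNAA. Both were searched on either strand in RefSeq promoter windows of GRCh38.p14, each running from 250 bases before a gene's start to 50 bases after it. Windows were found for 37 of the 40 members, 3 of these genes being listed under a newer symbol, and PDIA3, PSPH, and SHMT2 had none in the table. The 2 kinds of element did not overlap in any window. The ER stress element was found in 8 of 22 ER arm genes (36.4%) and in 0 of 15 ATF4 arm genes, against 25 of all 27305 genes with a window (0.0916%) and 27 of 35116 windows (0.0769%). The members are well-studied targets, some of which the element was first described in, so this share is a description of a known gene class. The matches are given here from 5′ to 3′ on the strand that holds them, with the fixed letters in capitals.
HSPA5: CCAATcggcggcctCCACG
HSP90B1, the distal match: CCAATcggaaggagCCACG
HSP90B1, the proximal match: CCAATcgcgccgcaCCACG
PDIA6: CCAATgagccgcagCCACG
CALR: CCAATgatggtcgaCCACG
CANX: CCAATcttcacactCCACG
CRELD2: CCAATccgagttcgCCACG
ERO1LB: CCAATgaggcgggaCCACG
XBP1: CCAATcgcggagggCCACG

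The composite element was found in 3 of 15 ATF4 arm genes (20.0%), which were CHAC1, ASNS, and AARS, and in 1 of 22 ER arm genes (4.55%), HERPUD1. Of all genes with a window, 4.46% held it, and of all windows 3.62%. A match says only that the letters are there, and the lack of one that they are not in this window. The 250 bases before the start are printed for 2 genes of each arm, which recur in the results. They are read on the strand of the gene, with matches to either element in capitals, so a match on the opposite strand appears as its reverse complement. The windows are chr9:125241344-125241593 on the minus strand for HSPA5, chr12:103930160-103930409 on the plus strand for HSP90B1, chr15:40953221-40953470 on the plus strand for CHAC1, and chr7:97872409-97872658 on the minus strand for ASNS.
HSPA5: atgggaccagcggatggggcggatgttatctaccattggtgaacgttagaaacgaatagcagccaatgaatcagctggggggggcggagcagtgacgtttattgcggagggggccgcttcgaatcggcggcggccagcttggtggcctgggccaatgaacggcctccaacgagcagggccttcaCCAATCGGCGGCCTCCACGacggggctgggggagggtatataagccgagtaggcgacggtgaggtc
HSP90B1: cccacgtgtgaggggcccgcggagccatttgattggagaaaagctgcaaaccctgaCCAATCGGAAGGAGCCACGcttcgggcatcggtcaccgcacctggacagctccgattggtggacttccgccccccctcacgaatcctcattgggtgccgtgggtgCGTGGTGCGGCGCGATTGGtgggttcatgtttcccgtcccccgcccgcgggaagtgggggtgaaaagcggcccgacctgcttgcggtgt
CHAC1: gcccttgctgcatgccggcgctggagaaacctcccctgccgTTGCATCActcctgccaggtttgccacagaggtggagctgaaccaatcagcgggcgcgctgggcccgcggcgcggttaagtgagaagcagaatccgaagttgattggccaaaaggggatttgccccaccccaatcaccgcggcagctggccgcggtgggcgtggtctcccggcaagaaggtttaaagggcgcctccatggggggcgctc
ASNS: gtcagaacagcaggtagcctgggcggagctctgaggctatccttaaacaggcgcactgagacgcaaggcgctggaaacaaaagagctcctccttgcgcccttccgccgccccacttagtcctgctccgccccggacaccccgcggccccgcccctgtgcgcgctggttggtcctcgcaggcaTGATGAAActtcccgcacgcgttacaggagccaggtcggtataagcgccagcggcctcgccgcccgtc

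Levels are given as relative signal, the background-subtracted spot intensity divided by the 75th percentile over the probes of its array, and fold changes as log2 of siDLEU1-2 over siCtrl within a line. A relative signal compares the same probe between arrays and not different genes. The share of probes well above background ran from 43.0% to 45.7% over the arrays, and a probe was kept where each line had at least 1 array on which it was well above background. The 19956 probes kept include 45 of the 49 member probes, 43 of which were well above background on all 6 arrays. They cover 39 genes, since the single probe of ERN1 was not kept. DLEU1 itself fell in each line, with log2 fold changes of -4.10, -3.63, and -3.44 in HSC-3, KON, and Ca9-22 (limma adjusted p = 0.0227). The squamous markers were present, with all 10 probes of 8 genes kept, of which 3, of DSG3, KRT6A, and SFN, were called lower (4.52% of all probes were) and 0 higher. Of the 10 probes, 6 were lower in all 3 lines and 1, of EPCAM, was higher in all 3. Their summed relative signal was 473 to 1503 over the siCtrl arrays and 363 to 827 over the siDLEU1-2 arrays. Of 4 fibroblast markers only COL1A1 was kept, and it was called higher, while DCN was well above background on 1 of 6 arrays and LUM and PDGFRB on none. The summed signal of the fibroblast list was 0.726 to 0.878 after siCtrl and 1.70 to 2.92 after siDLEU1-2. Most of this sum was the COL1A1 probe, at 0.639 to 0.812 after siCtrl and 1.54 to 2.70 after siDLEU1-2, and the rest came from probes not kept. CD14 was the only leukocyte marker kept of 4, and CDH5 and VWF were kept of 3 endothelial markers. The part of these markers in the results was not tested.

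Most members lay higher after siDLEU1-2, but few passed the test over the lines. limma was fitted to all probes kept with cell line as the block, and p-values were adjusted over all of them. It called 4 member probes higher, 8.89% of the 45, where 3.98% of all probes were. These belonged to ASNS, PSAT1, MTHFD2, and PDIA3. It called 1 lower, of SEL1L, which is 2.22%, where 4.52% of all probes were. At an unadjusted p below 0.05, 23 member probes were higher and 2 lower, where 14.6% and 14.9% of all probes were. The log2 fold change was above 0 in all 3 lines for 33 of the 45 probes (73.3%), where this was so for 26.9% of all probes. It was below 0 in all lines for 2 member probes, both of SEL1L, where the share of all probes was 26.7%. By arm, 21 of 26 ER probes (80.8%) and 12 of 19 ATF4 probes (63.2%) were higher in every line. Among other genes of the same pathways, 25 of 53 ER probes (47.2%) and 22 of 55 ATF4 probes (40%) were. The members had been chosen with earlier results of these data known. A change of more than 2-fold in all 3 lines, which 4.38% of all probes reached, was seen for 1 member probe, of ERO1LB, whose direction differed between lines, and for 0 once signals not well above background were set to the detection floor. None of the calls held once any line was left out, without the block, or with the filter on dim probes loosened to 1 array or dropped.

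**Figure D1:**
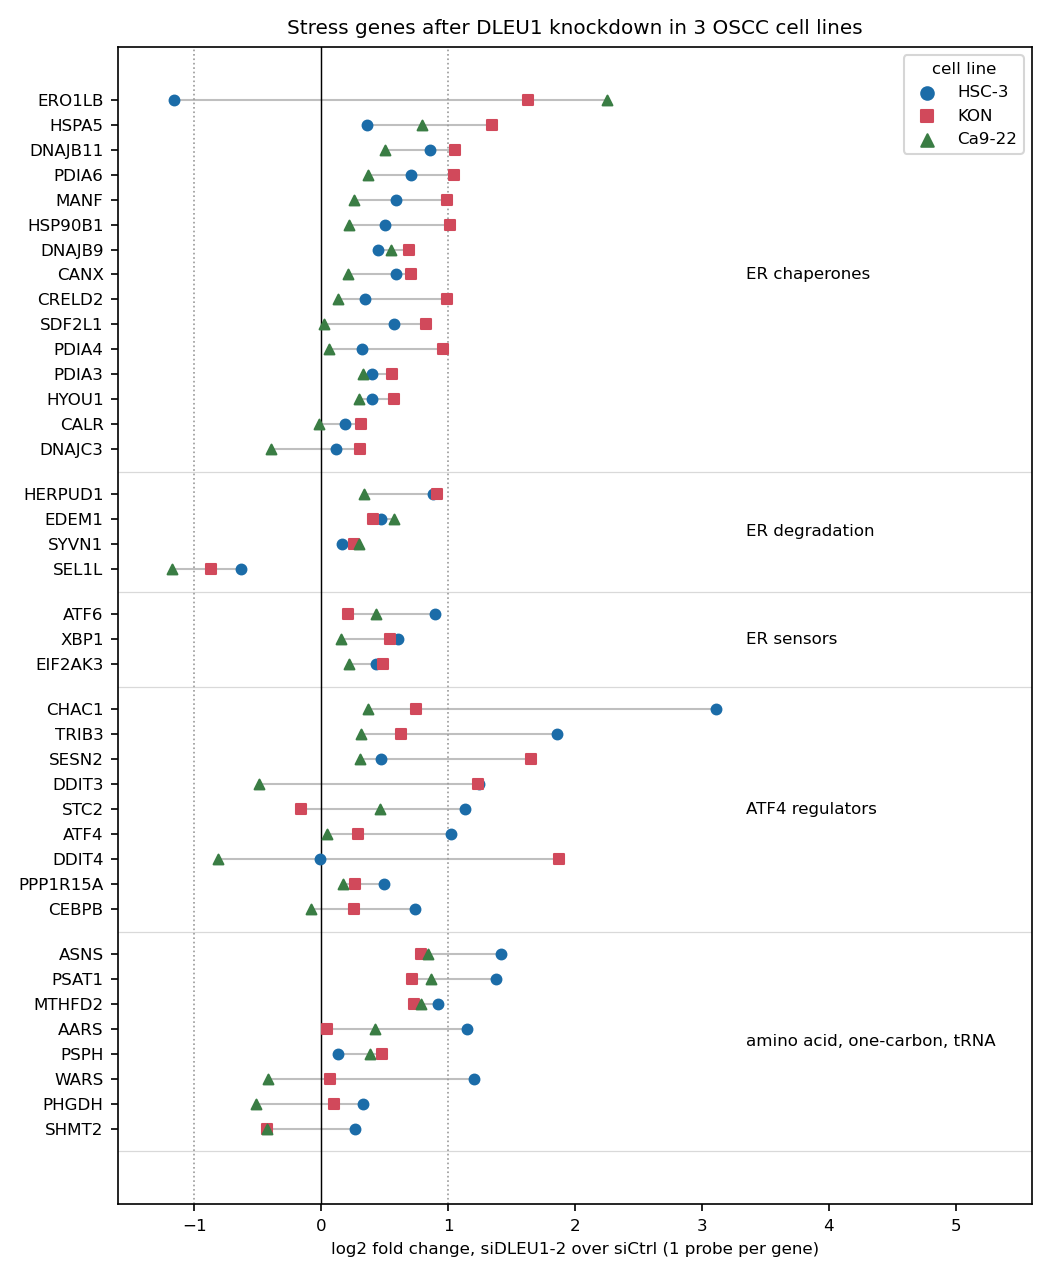
Log2 fold change of siDLEU1-2 over siCtrl (horizontal axis) for the 39 member genes with a probe kept, 1 probe per gene, grouped by role. Blue circles stand for HSC-3, red squares for KON, and green triangles for Ca9-22, with dotted lines at 2-fold. ERO1LB is plotted as measured, with 1 array of each pair not well above background. The red squares lie farthest right for 14 of 15 ER chaperones, and the blue circles for 14 of 17 ATF4 genes.

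Of the 4 genes called higher, ASNS, PSAT1, and MTHFD2 are among the 8 enzymes of amino acid and one-carbon metabolism and tRNA charging, with 3 of their 9 probes called (33.3%, where 3.98% of all probes were called higher). With median centering only MTHFD2 of these kept its call. ASNS makes asparagine from aspartate and glutamine. Its relative signal went from 24.1 to 64.6 in HSC-3, from 35.8 to 61.7 in KON, and from 37.4 to 67.0 in Ca9-22. Every siDLEU1-2 array lay above every siCtrl array. The mean log2 fold change was 1.02 ± 0.35 (SD, n = 3 cell lines; limma adjusted p = 0.0464), and its probe lies at chr7:97481461-97481520 of hg19, the build of the array files. PSAT1, which makes phosphoserine on the way to serine, went from 11.4 to 29.6 in HSC-3, from 36.5 to 60.0 in KON, and from 44.8 to 81.4 in Ca9-22. The groups overlapped, because HSC-3 began lower than the other lines. Over the lines the log2 fold change averaged 0.99 ± 0.35 (adjusted p = 0.0481 by limma; chr9:80944778-80944837). A second PSAT1 probe went in relative signal from 0.713 to 2.12 in HSC-3, from 2.86 to 4.54 in KON, and from 3.25 to 6.39 in Ca9-22. Its mean was 1.07 ± 0.46, just past the threshold of 0.05 on the other side (adjusted p = 0.054 by limma).

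MTHFD2, a mitochondrial enzyme of the folate cycle, was the most even over the lines of the ATF4 genes that rose. It went from 16.2 to 30.5 in HSC-3, from 22.1 to 36.8 in KON, and from 18.1 to 31.2 in Ca9-22, with no overlap between the siRNAs. Its mean log2 fold change over the lines was 0.81 ± 0.09 (adjusted p = 0.0393 by limma; chr2:74441985-74442044). The 10 spots of its probe on each array varied with an SD of 0.034 to 0.088 in log2 units, a measure of error inside 1 array. The other enzymes of the same synthesis routes did not pass the test. For PSPH, which completes serine synthesis, the log2 fold change was 0.13, 0.48, and 0.38 in HSC-3, KON, and Ca9-22. For PHGDH, which begins it, the values were 0.33, 0.10, and -0.51. For SHMT2, which passes the carbon of serine to folate in mitochondria, they were 0.27, -0.42, and -0.42. PHGDH, PSAT1, and PSPH catalyze consecutive steps, and all were above 0 in HSC-3 and KON, while PHGDH was below 0 in Ca9-22.

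Of the aminoacyl-tRNA synthetases, AARS charges tRNA with alanine and WARS with tryptophan. AARS had relative signals of 3.61, 8.16, and 6.23 after siCtrl in HSC-3, KON, and Ca9-22, and of 8.01, 8.42, and 8.38 after siDLEU1-2. Its log2 fold change was thus 1.15 in HSC-3 but 0.04 in KON and 0.43 in Ca9-22, and the mean was not called (adjusted p = 0.233 by limma). WARS had log2 fold changes of 1.20, 0.07, and -0.42 in HSC-3, KON, and Ca9-22. WARS is also known as an interferon-induced gene.

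The 9 regulators of the ATF4 arm had a median log2 fold change of 1.02, 0.63, and 0.17 in HSC-3, KON, and Ca9-22, and limma called 0 of their 10 probes in either direction, where 3.98% of all probes were called higher and 4.52% lower. At an unadjusted p below 0.05, 2 were higher and 0 lower, a share near the 14.6% of all probes that were higher. CHAC1, an enzyme that degrades glutathione, had the highest log2 fold change of the members. Its brighter probe (chr15:41248631-41248690) went in relative signal from 0.793 to 6.86 in HSC-3, from 5.39 to 9.05 in KON, and from 22.3 to 28.8 in Ca9-22. The lines ranked the same way after both siRNAs, and the log2 fold change was 3.11, 0.75, and 0.37 in HSC-3, KON, and Ca9-22 (mean 1.41 ± 1.49; adjusted p = 0.191 by limma). A second, dimmer probe went in relative signal from 0.0187 to 0.51 in HSC-3, from 0.315 to 0.587 in KON, and from 1.34 to 1.97 in Ca9-22. The siCtrl value of HSC-3 was not well above background, so CHAC1 was at least 6.10-fold higher there by this probe. For such a bound the dimmer array takes the lowest signal among its probes well above background.

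TRIB3, a pseudokinase induced by ATF4 and CHOP, went from 46.5 to 169 in HSC-3, from 120.2 to 186 in KON, and from 48.3 to 60.1 in Ca9-22. HSC-3 and Ca9-22 began at about the same level and parted after siDLEU1-2. ATF4 went from 140.1 to 284 in HSC-3, from 282 to 345 in KON, and from 255 to 264 in Ca9-22. The log2 fold changes were 1.02, 0.29, and 0.05, and the HSC-3 array with siDLEU1-2 reached the siCtrl level of KON. DDIT3, which encodes the transcription factor CHOP, was higher by 1.24 in both HSC-3 and KON and had a log2 fold change of -0.49 in Ca9-22. It went from 2.19 to 5.17 in HSC-3, from 2.75 to 6.49 in KON, and from 5.46 to 3.88 in Ca9-22.

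DDIT4 and SESN2, both inhibitors of mTORC1 signaling, had their highest log2 fold change in KON, though not their highest signal. DDIT4 went in relative signal from 130.1 to 129 in HSC-3, from 11.6 to 42.5 in KON, and from 88.8 to 50.5 in Ca9-22. Its log2 fold changes of -0.01, 1.87, and -0.81 thus run in different directions, and the difference between lines was not tested. SESN2 had log2 fold changes of 0.47, 1.66, and 0.31 in HSC-3, KON, and Ca9-22. STC2, a secreted glycoprotein, had 1.13, -0.16, and 0.47 in these lines. CEBPB, a partner of ATF4 in DNA binding, had 0.74, 0.26, and -0.08. PPP1R15A (GADD34), which directs dephosphorylation of eIF2 alpha, had 0.49, 0.27, and 0.17.

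**Figure D2:**
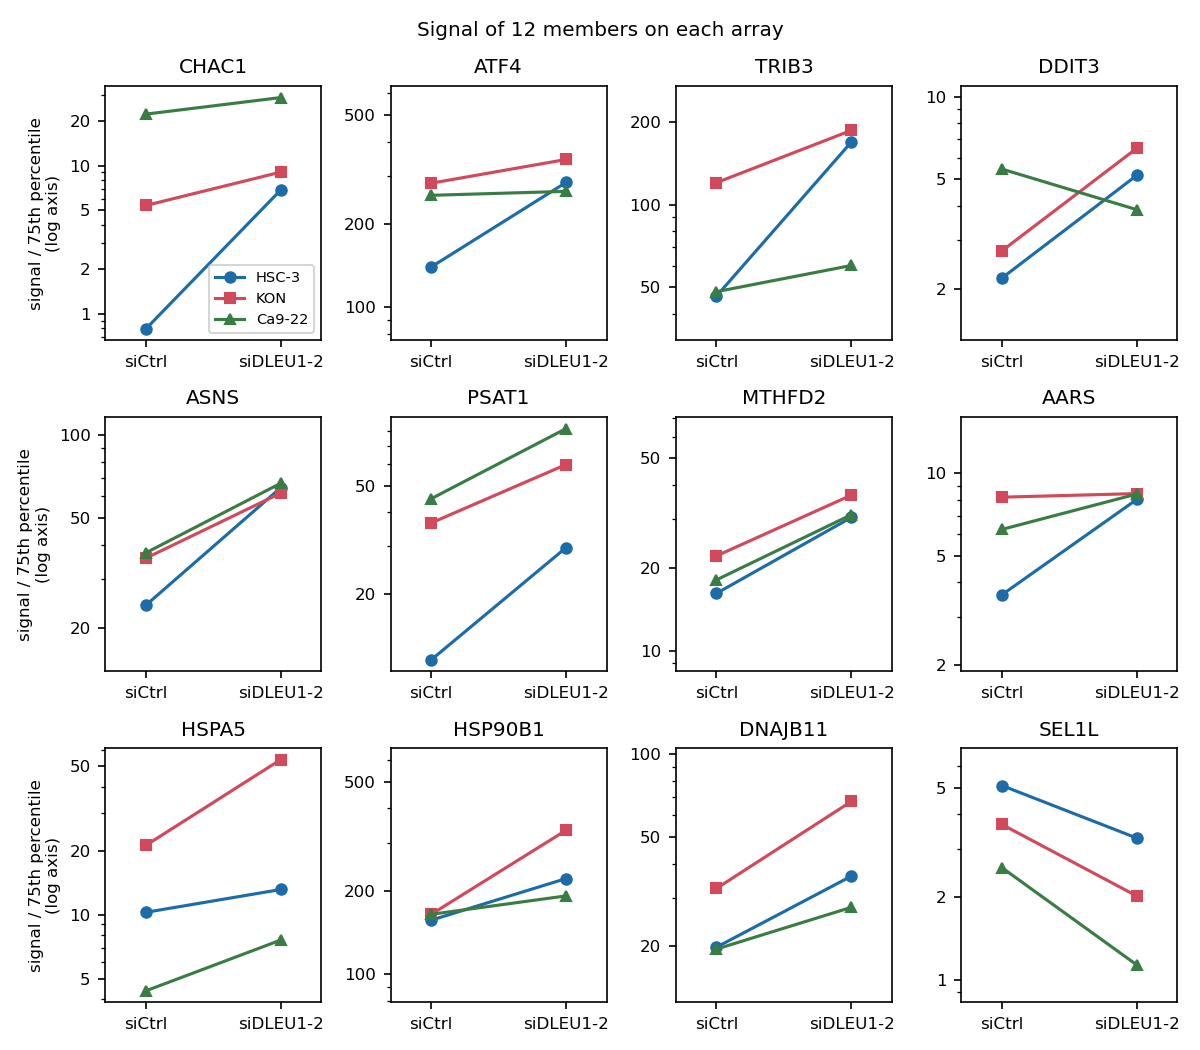
Relative signal (spot intensity over the 75th percentile of the array, log axis with its own range in each panel) of 12 members on each of the 6 arrays. Lines join the siCtrl and siDLEU1-2 arrays of HSC-3 (blue), KON (red), and Ca9-22 (green). ASNS and MTHFD2 are higher on every siDLEU1-2 array than on any siCtrl array, CHAC1 is steepest in HSC-3, HSPA5 in KON, and SEL1L is lower in all lines.

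In the ER arm, KON had the highest log2 fold change for 14 of 15 chaperone genes at 1 probe per gene (35.9% of all probes), and 15 of 18 chaperone probes were above 0 in every line (83.3%, beside 26.9% of all probes). HSPA5, the main ER chaperone of the HSP70 family, went in relative signal from 10.3 to 13.1 in HSC-3, from 21.2 to 53.8 in KON, and from 4.37 to 7.59 in Ca9-22. Its log2 fold changes were 0.36, 1.34, and 0.80 (mean 0.83 ± 0.49; adjusted p = 0.0928 by limma). HSP90B1, its HSP90 counterpart, went in relative signal from 157 to 222 in HSC-3, from 165 to 333 in KON, and from 165 to 192 in Ca9-22. By this probe the siCtrl levels were nearly equal, and the lines lay farther apart after siDLEU1-2. A second, dimmer probe had less equal siCtrl levels, at 3.89, 4.91, and 4.59 in HSC-3, KON, and Ca9-22. It gave almost the same log2 fold changes, at 0.49, 1.11, and 0.30 against 0.50, 1.02, and 0.22. The cochaperone DNAJB11 had 0.86, 1.05, and 0.50 (mean 0.80 ± 0.28) and missed the threshold at an adjusted p of 0.0566 by limma.

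PDIA3, a disulfide isomerase that acts on glycoproteins, was the only chaperone gene called, by 1 of its 2 probes. That probe (chr15:44064742-44064801) went from 0.933 to 1.44 in HSC-3, from 2.26 to 3.84 in KON, and from 1.02 to 1.69 in Ca9-22. The mean log2 fold change was 0.70 ± 0.07 (SD, n = 3 cell lines; adjusted p = 0.0485 by limma). This call was lost with median centering (adjusted p = 0.0566 by limma) and with the percentile taken over detected probes (adjusted p = 0.0537). The brighter PDIA3 probe had 0.40, 0.56, and 0.33 and was not called (adjusted p = 0.124). Of the other disulfide isomerases, PDIA6 had 0.71, 1.05, and 0.37, and PDIA4 had 0.32, 0.96, and 0.06. MANF, a secreted factor that is retained in the ER by BiP, had 0.59, 0.99, and 0.26. CRELD2 and SDF2L1, which are induced with it, had 0.34, 0.99, and 0.13 and 0.57, 0.82, and 0.02. The lectin chaperones CANX and CALR were less alike. The brighter CANX probe had 0.59, 0.71, and 0.21 (adjusted p = 0.127 by limma), and the dimmer one had 0.56, 0.62, and 0.74, highest in Ca9-22 (adjusted p = 0.0581). CALR had 0.19, 0.31, and -0.02.

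The remaining chaperone genes were DNAJB9, HYOU1, DNAJC3, and ERO1LB. DNAJB9, a known target of XBP1, had log2 fold changes of 0.45, 0.69, and 0.55, and HYOU1, a nucleotide exchange factor of BiP, had 0.40, 0.57, and 0.30. DNAJC3, an inhibitor of PERK, had 0.11, 0.30, and -0.39, with a second probe not kept. ERO1LB, an oxidase that recharges disulfide isomerases, was near background throughout. Its probe was well above background on 3 of 6 arrays, and its relative signal went from 0.151 to 0.0678 in HSC-3, from 0.067 to 0.208 in KON, and from 0.0325 to 0.155 in Ca9-22. As bounds, ERO1LB was at least 1.82-fold lower after siDLEU1-2 in HSC-3, and at least 2.98-fold higher in KON and 1.68-fold higher in Ca9-22. The second ERO1LB probe was well above background on no array. limma called 1 of 18 chaperone probes higher (5.56%) and 0 lower, beside the 3.98% and 4.52% of all probes. At an unadjusted p below 0.05, 12 were higher and 0 lower, beside 14.6% and 14.9% of all probes.

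SEL1L, the adaptor of the ubiquitin ligase that exports misfolded proteins from the ER, went against the other ER genes. Its brightest probe (chr14:81939240-81939299) went from 5.09 to 3.28 in HSC-3, from 3.67 to 2.02 in KON, and from 2.56 to 1.13 in Ca9-22. The groups overlapped because the lines began at different levels, but each line was lower. On average the log2 fold change was -0.89 ± 0.27 (adjusted p = 0.0475 by limma). A second probe (chr14:81945957-81946016) had log2 fold changes of -0.34, -0.63, and -0.84 and was not called (adjusted p = 0.0877). The probe of lowest signal was well above background only on the siCtrl arrays of HSC-3 and KON, and went from 0.158 to 0.0409 in HSC-3, from 0.137 to 0.0358 in KON, and from 0.0201 to 0.0224 in Ca9-22. This probe gave a bound of at least 1.90-fold lower for HSC-3 and 1.57-fold lower for KON, and none for Ca9-22. SYVN1 (HRD1), the ligase that SEL1L serves, had 0.16, 0.26, and 0.30. HERPUD1, another part of the same complex, had 0.88, 0.92, and 0.34, and EDEM1, which hands over misfolded glycoproteins, had 0.47, 0.41, and 0.57. Of the sensors, ATF6 had 0.90, 0.21, and 0.44, EIF2AK3 had 0.43, 0.49, and 0.22, and XBP1 had 0.60, 0.54, and 0.15. The sensor ERN1 was not measured well enough for a fold change.

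The arms differed in the line where they were highest. With 1 probe per gene, the median log2 fold change of the 17 ATF4 genes was 1.02, 0.48, and 0.31 in HSC-3, KON, and Ca9-22. That of the 22 ER genes was 0.44, 0.70, and 0.28 in HSC-3, KON, and Ca9-22. Over all probes kept, the medians were -0.0016, 0.019, and -0.0083. The ATF4 median thus exceeded the ER median by 0.58 in HSC-3, lay 0.22 below it in KON (difference -0.22), and differed by 0.030 in Ca9-22. Averaged over the lines, the medians were 0.60 ± 0.37 for ATF4 and 0.47 ± 0.21 for ER genes (SD, n = 3 cell lines), so the arms differed by less than either varied between lines. The order turned without HSC-3, to 0.39 for ATF4 and 0.49 for ER, and the median of the genes' means over the lines was 0.48 for ATF4 and 0.49 for ER. Among single genes, the highest of the 3 lines was HSC-3 for 14 and KON for 3 of 17 ATF4 genes. It was KON for 16, HSC-3 for 3, and Ca9-22 for 3 of 22 ER genes. Over all probes, the highest line was HSC-3 for 34.4%, KON for 35.9%, and Ca9-22 for 29.7%. Among 38 other genes of the ER pathway, it was HSC-3 for 14, KON for 13, and Ca9-22 for 11, and among 37 other genes of the ATF4 pathway HSC-3 for 25, KON for 7, and Ca9-22 for 5. Whether the lines differ was not tested, since each has 1 array per siRNA.

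**Figure D3:**
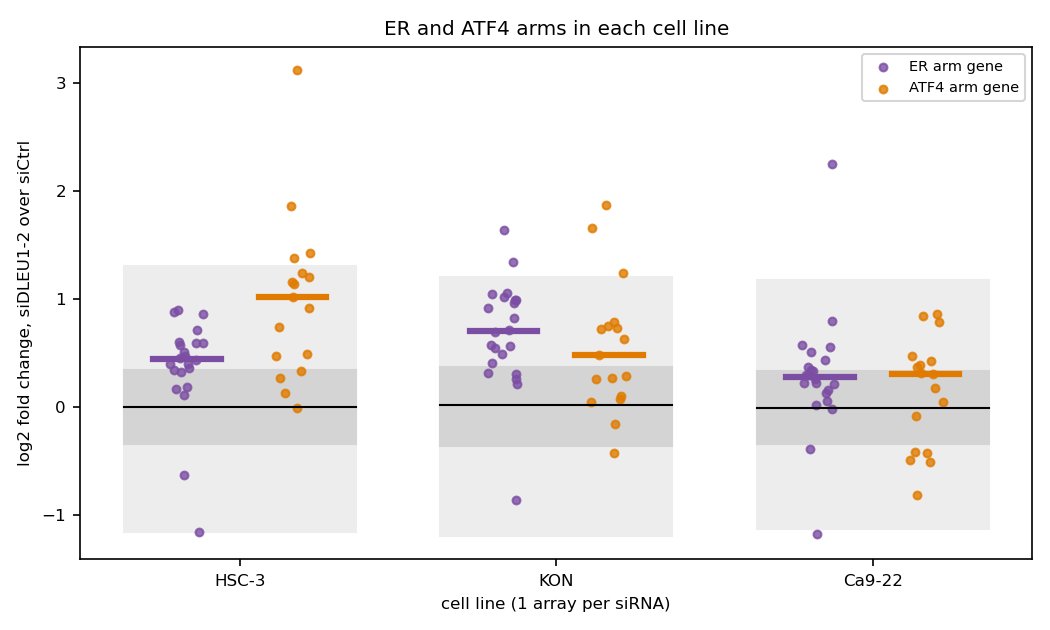
Log2 fold change of siDLEU1-2 over siCtrl (vertical axis) for 22 ER genes (purple) and 17 ATF4 genes (orange) in each line, 1 point per gene with bars at the medians. Grey bands span the middle of all 19956 probes kept, from the 5th to the 95th percentile (light) and from the 25th to the 75th (dark), with a black line at their median. The ATF4 bar is highest in HSC-3, at 1.02, and the ER bar in KON, at 0.70.

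Most probes past 2-fold were of the ATF4 arm in HSC-3 and of the ER arm in KON. In HSC-3, 11 of 19 ATF4 probes (57.9%) and 0 of 26 ER probes were over 2-fold higher, where 7.53% of all probes were. In KON, 6 of 26 ER probes (23.1%) and 3 of 19 ATF4 probes (15.8%) were, against 7.3% of all probes. The 6 were both HSP90B1 probes, HSPA5, DNAJB11, PDIA6, and ERO1LB, and the 3 were DDIT4, SESN2, and DDIT3. In Ca9-22 no member other than ERO1LB was over 2-fold higher (6.56% of all probes). Over 2-fold lower were SEL1L in Ca9-22 (6.46% of all probes), 0 members in KON (7.29%), and in HSC-3 none but ERO1LB (6.68%). For ERO1LB these counts set a signal against 1 not well above background, and its bounds in HSC-3 and Ca9-22 stay under 2-fold. Across the 39 member genes, log2 fold changes of HSC-3 had a Pearson r of -0.023 with those of KON and of 0.030 with those of Ca9-22, while KON and Ca9-22 had 0.40 (Spearman rho 0.014, 0.31, and 0.26). ERO1LB enters these values as measured, with 1 array of each pair not well above background. In the same order of pairs, r was 0.12, -0.19, and 0.75 for the 22 ER genes, which include ERO1LB. It was -0.013, 0.41, and -0.049 for the 17 ATF4 genes, which do not. Over all probes kept, r was 0.60, 0.60, and 0.58. Genes of a line share its arrays and are not independent replicates.

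Within the ER arm, genes with the ER stress element had a higher median than genes without it in KON but not in the other lines. The 8 genes with the element had medians of 0.43, 1.002, and 0.22 in HSC-3, KON, and Ca9-22. The 13 genes with a window but no element had 0.45, 0.57, and 0.30. CHAC1, ASNS, and AARS, with the composite element, had medians of 1.42, 0.75, and 0.43, beside 0.97, 0.46, and 0.11 for the 12 ATF4 genes without it. Both comparisons rest on few genes and were not tested.

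The levels before knockdown differed between lines as well. After siCtrl, HSC-3 had the lowest of the 3 levels for 12 of 17 ATF4 genes (70.6%) and for 5 of 22 ER genes (22.7%), where this held for 30.1% of all probes. Ca9-22 had the lowest for 15 of 22 ER genes, beside 7517 of all 19956 probes. KON had the highest for 11 of 22 ER genes (50%) and 8 of 17 ATF4 genes (47.1%), beside 33.2% of all probes. The SD of the log2 levels over the lines had a median of 0.75 after siCtrl and 0.45 after siDLEU1-2 for ATF4 genes, and it was smaller after siDLEU1-2 for 12 of 17 (70.6%). For ER genes it had a median of 0.37 after siCtrl and 0.51 after siDLEU1-2, and it was smaller for 6 of 22 (27.3%). Of all probes, 41.7% had a smaller SD after siDLEU1-2. AARS went from an SD of 0.60 to 0.039 and ASNS from 0.35 to 0.059, so after siDLEU1-2 the lines had nearly the same level of both. When each gene was centered on its mean over the siCtrl arrays, the ATF4 median was -0.55, 0.25, and 0.24 in HSC-3, KON, and Ca9-22 after siCtrl, and 0.52, 0.80, and 0.34 after siDLEU1-2. The ER medians were 0.014, 0.095, and -0.22 after siCtrl, and 0.40, 0.83, and 0.020 after siDLEU1-2. The same siCtrl arrays enter both the levels and the fold changes, so a low siCtrl value and a high fold change are not independent measurements.

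**Figure D4:**
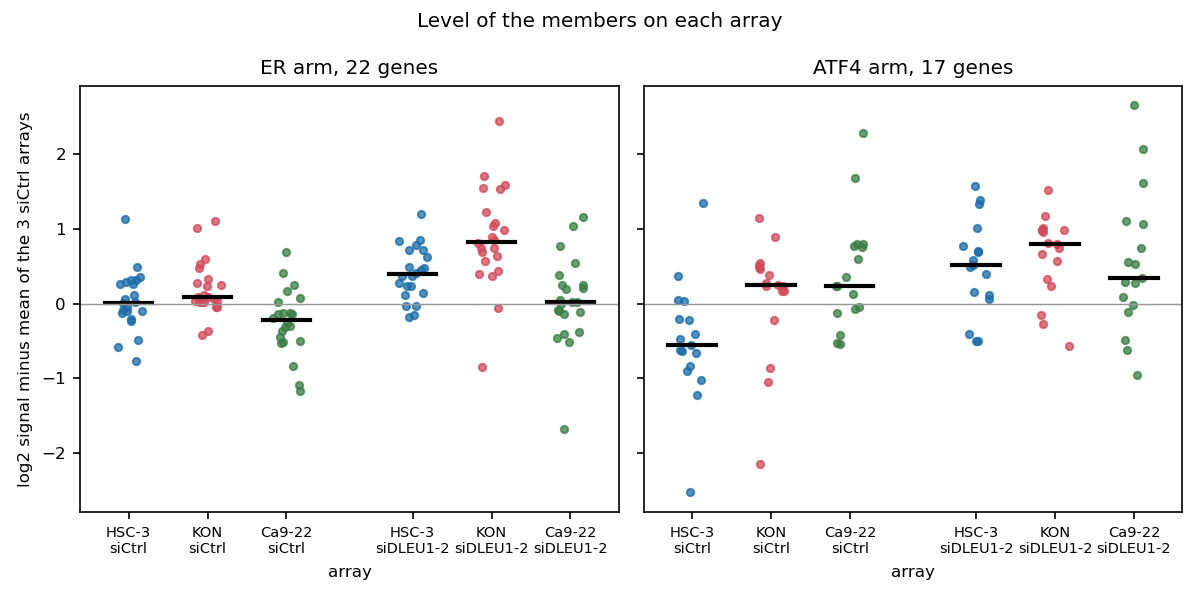
Log2 signal of each member gene minus its mean over the 3 siCtrl arrays (vertical axis) on each of the 6 arrays, for 22 ER genes (left) and 17 ATF4 genes (right), with bars at the medians. The ATF4 bar of HSC-3 lies at -0.55 after siCtrl and at 0.52 after siDLEU1-2, and the highest ER bar is that of KON after siDLEU1-2, at 0.83.

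Other genes of the same pathways were followed through lists of 38 ER and 43 ATF4 genes. For the ER list, medians were 0.21, 0.12, and 0.18, below those of the ER members in every line. limma called 2 of its 53 probes kept (3.77%) higher and 0 lower, near or below the 3.98% and 4.52% of all probes. At an unadjusted p below 0.05, 9 were higher and 5 lower, where 14.6% and 14.9% of all probes were. The probes called belong to ARFGAP3, a regulator of vesicle coats, and GFPT1, which begins hexosamine synthesis and is a target of XBP1. GFPT1 went from 0.214 to 0.653 in HSC-3, from 0.303 to 1.46 in KON, and from 0.739 to 1.32 in Ca9-22 (adjusted p = 0.0493 by limma). A second, brighter GFPT1 probe had 0.63, 0.74, and 0.48 and was not called (adjusted p = 0.0661).

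For the ATF4 list, medians were 0.46, -0.022, and 0.30, with 4 of 55 probes (7.27%) called higher and 2 (3.64%) lower, beside 3.98% and 4.52% of all probes. JDP2, a repressor of the AP-1 family, had the highest mean of the 4, with log2 fold changes of 1.92, 1.65, and 2.02. NUPR1, a stress-induced chromatin protein, had 1.46, 1.89, and 1.55. XPOT, which exports tRNA from the nucleus, had 1.40, 1.15, and 1.15. The probe of SARS that was called had 1.31, 1.59, and 1.17, and the files assign it to a noncoding transcript of the gene. The probe on the mRNA of SARS, which encodes the synthetase that charges tRNA with serine, was far from the threshold with 0.34, -0.02, and 0.11 (adjusted p = 0.57 by limma), and the remaining probe had -0.09, -0.17, and 0.52. These 4 called probes were over 2-fold higher in every line. ATF5, a relative of ATF4, was called lower with -0.90, -0.86, and -1.21, and EIF2AK1 (HRI), an eIF2 alpha kinase, with -0.74, -1.39, and -1.35. CTH, which makes cysteine, ran from 2.60 to 225 in HSC-3, from 1.97 to 9.003 in KON, and from 10.6 to 38.1 in Ca9-22, and at log2 fold changes of 6.43, 2.19, and 1.84 it was not called (adjusted p = 0.0962). GDF15, a secreted stress cytokine, had 2.39, 1.35, and 0.75 (adjusted p = 0.0655 by limma). ATF3, a stress-induced transcription factor, has 4 probes, of which 3 had their highest value in HSC-3, at 1.71 to 1.88, and their lowest in Ca9-22, at 0.48 to 0.59. The remaining ATF3 probe had -0.31, 0.13, and 0.31, in the opposite order, and 0 of the 4 were called (adjusted p from 0.0606 to 0.90 by limma). CTH, GDF15, and ATF3 were singled out after their values were seen. At an unadjusted p below 0.05 by limma, 14 probes of the ATF4 list were higher and 6 lower, where 14.6% and 14.9% of all probes were. Of its 55 probes, 22 were higher in all lines and 9 lower, where 26.9% and 26.7% of all probes were. Genes lower in all lines but not called include SLC7A5, with -0.68, -0.26, and -0.72, and SLC7A1, with -0.40, -0.77, and -0.48.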

How the data were processed

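RNA of 3 cell lines was hybridized to SurePrint G3 Human arrays. The files that the authors deposited come from Feature Extraction 10.7.3.1 (10.7 in the submitters' processing notes) and give each spot an intensity, background-subtracted and not normalized between arrays, and a series table of the same intensities (largest difference 0.497%). GeneSpring GX is named for the study's analysis, and its normalization is not given in the sources used here. Probe positions are on hg19.

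From these, log2 processed signal was taken without control spots and spots marked as outliers, spots of a probe were averaged, and the 75th percentile of each array was subtracted. The 75th percentile of the processed signal was 200 to 257, and 0 spots were saturated. The number of arrays limits the precision. Well above background means that the software marked at least 50% of a probe's spots so, and 55 probes lacked a usable spot on some array and stayed out of the test. limma 3.58.1 (lmFit, eBayes) in R 4.3.3 was fitted with siRNA and cell line, Benjamini-Hochberg adjusted over the 19956 probes kept. The eBayes step moves the error of each probe toward that of all probes, so an adjusted p does not rest on the printed SD alone. The steps were tested on simulated data. Deviations from each siRNA's mean correlated within pairs of one line at 0.83, 0.81, and 0.82. Arm medians use 1 probe per gene, kept, well above background on most arrays, then brightest.

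Members, lists, and tests were chosen with earlier results of these data known. By rule, full values are given for DLEU1 and for members called by limma, over 2-fold in all or in 2 lines, or with probes disagreeing in direction over 2-fold. Values on every array were also planned for members with a mean log2 fold change over 1 in size. AARS, ATF4, TRIB3, DDIT4, HSPA5, and HSP90B1 have values on every array outside this rule. The others are given by their log2 fold change in each line. Other members and genes are named to account for every member. Alternatives were quantile normalization, other centering, normexp (offset 50), the series table, other filters, a detection floor, other fold thresholds, the methods' t-test, a fit with no block, fits with each line left out, and the mean of a gene's probes. A slide block was not fitted, since there is 1 slide. RefSeq tables of GRCh38.p14 gave promoters and names only.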

Additional observations from a re-analysis of the deposited data

Results flagged for a closer look

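Of the members, 5 differed by more than 2-fold between the siRNAs in some line and went the other way in another. With 1 array per siRNA in a line, no difference between lines was tested. From the lowest line to the highest, log2 fold changes spanned 2.68 for DDIT4, 1.73 for DDIT3, 1.62 for WARS, and 1.29 for STC2, each well above background on all arrays. For ERO1LB the span as measured was 3.41, but 1 array of each pair was not well above background, and the bounds are 1.82-fold lower for HSC-3, 2.98-fold higher for KON, and 1.68-fold higher for Ca9-22, so its size is not ranked with the others. DDIT3, DDIT4, and WARS were below 0 in Ca9-22, while STC2 was below 0 in KON.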

How the results depend on the processing

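The arm medians within each line moved by less than the SD between lines under every alternative that gave them. Averaged over the lines, they ran from 0.39 to 0.75 for ATF4 and from 0.36 to 0.57 for ER with 1 line left out, and without HSC-3 the ATF4 value (0.39) lay below the ER value (0.49). Median centering moved the median of all probes by -0.12 in KON, and other scalings by less than 0.1. Probes called higher and lower were 1 and 1 in the ER arm, 3 and 0 in the ATF4 arm, 2 and 0 and 4 and 2 in the other ER and ATF4 genes, and 795 and 902 in all. Without the cell line as a replicate block, with the methods' t-test, with the filter loosened to at least 1 array, and with no filter, all of these were 0. With the block left out, 687 probes were higher and 670 lower at an unadjusted p below 0.05. No call was thus made without the pairing by cell line. Leaving out 1 line gave 0 to 0 in each list, and over all probes 0 to 127 higher and 0 to 117 lower, with calls only without Ca9-22. With median centering 0 ER and 1 ATF4 members were higher (0 other ER genes), and with the percentile taken over detected probes 0 ER members (1 other ER gene, as with quantile normalization). With normexp, 3 ER members, 6 other ER, and 8 other ATF4 genes were higher and 1 other ER gene lower. With probes well above background on all arrays, 3 ER members and 8 other ATF4 genes were higher and 1 other ER gene lower. The counts for the other scalings, normexp, and this filter are given without the calls over all probes in the same setting. A change in the members therefore cannot be told here from a general change in calls.

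Over 2-fold in all lines were 1 ER, 0 ATF4, 0 other ER, and 5 other ATF4 probes, and 874 in all. The ER count was 0 with normexp, a filter on all arrays, or the detection floor. At 1.5-fold the counts were 3, 4, 2, 10, and 2351, and at 3-fold 0, 0, 0, 2, and 258, while normexp gave 399 in all. With 1 line left out they were 1 to 1, 0 to 1, 0 to 1, 5 to 9, and 1307 to 1377, highest without Ca9-22. DNAJC3 had a mean of 0.01, and of -0.011 with quantile normalization, -0.064 with median centering, -0.017 with the percentile of detected probes, and -0.14 to 0.21 with 1 line left out. With 1 line left out WARS ran from -0.17 (without HSC-3) to 0.64, DDIT4 from -0.41 (without KON) to 0.93, and PHGDH from -0.21 to 0.21 (without Ca9-22). The cause was not tested. Alternatives for the other pathway genes and the fold thresholds over all probes were chosen after seeing the data.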
